A study of Mus musculus with 6 samples.

Results

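Matrix metalloproteinases, their inhibitors and the proteases that work beside them were followed in GC-2spd cells, a mouse spermatocyte-derived cell line, after exposure to PM2.5. The family was taken as the protein-coding genes of GENCODE M21 (GRCm38) whose symbols name a matrix metalloproteinase (Mmp), a tissue inhibitor of metalloproteinases (Timp) or an ADAMTS protease. Plau, Plaur, Plat, Serpine2, Serpine3 and Reck were added by name. The genes described are 51 of the 54886 genes listed. They are 15 secreted and 7 membrane-anchored MMPs, 4 TIMPs with Reck, 19 ADAMTS proteases and 5 genes of the plasminogen activator system. Expression was measured by RNA sequencing in 3 control libraries (0 μg/mL) and 3 libraries of cells that received 100 μg/mL of the particles over 48 h. The paper's cell culture methods describe the control group as given normal medium and PBS. Both groups are the same established line from BALB/c mice, so the values describe 1 line in culture and not a testis. The labels do not say whether the replicates were separate cultures, and the p-values measure the spread between these libraries, which may be technical.

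MMPs are zinc-dependent endopeptidases that cut the proteins of the extracellular matrix and of the cell surface. Most are made as inactive precursors, and TIMPs block the active enzyme by binding its zinc site, while Reck is a membrane-anchored inhibitor. ADAMTS proteases carry the same kind of zinc site and process procollagens and proteoglycans. Plau and Plat turn plasminogen into plasmin, a protease that also activates some MMPs, and Plaur holds Plau at the cell surface. In the testis, these proteases and inhibitors are known for their part in remodelling the junctions between Sertoli cells while germ cells move across the seminiferous epithelium.

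The catalytic site is shown for the 6 expressed MMPs because it is the feature that makes these genes 1 family. A search of the GENCODE M21 coding sequences found the metzincin zinc-binding motif in all 22 MMPs of the family. In the 6 expressed MMPs the motif is a stretch of 33 bases within 1 coding exon, and the capitals mark its 3 zinc-binding histidine codons.
Mmp2, exon 8, chr8:92839279-92839311, plus strand: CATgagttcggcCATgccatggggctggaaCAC
Mmp14, exon 5, chr14:54437627-54437659, plus strand: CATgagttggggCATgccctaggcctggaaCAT
Mmp11, exon 5, chr10:75926931-75926963, minus strand: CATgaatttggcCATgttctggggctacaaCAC
Mmp16, exon 5, chr4:18051748-18051780, plus strand: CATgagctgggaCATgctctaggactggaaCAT
Mmp19, exon 5, chr10:128795673-128795705, plus strand: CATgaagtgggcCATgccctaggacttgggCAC
Mmp28, exon 5, chr11:83444921-83444953, minus strand: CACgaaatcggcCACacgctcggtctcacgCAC
The membrane-type pair Mmp14 and Mmp16 was the most alike, with 29 of 33 identical bases. Mmp28 stood farthest from the others, with 18 identical bases against Mmp14 and against Mmp16. The same motif was found in 13 of the 19 ADAMTS genes. The remaining 6 (Adamts1, Adamts4, Adamts8, Adamts9, Adamts15 and Adamts20) matched once any codon was allowed at the glycine position, which is an asparagine codon in 5 of them.

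Depth was similar across libraries, while 2 libraries stood apart from their groups. The recovered reads lay between 16209352 and 18003200 per library, and the family took 0.204% to 0.308% of them. The Pearson correlation across genes, which are not independent replicates, was 0.992 for control replicate 1 with control replicate 3. For control replicate 2 it was only 0.732 to 0.779 with the other 5 libraries, and mitochondrial genes held 14.5% of its reads against 1.65% to 1.95% elsewhere. It lay more than 1 on the log2 scale from the mean of the other controls in 9 of the 22 tested members (40.9%) and in 4885 of all 11884 genes tested (41.1%). PM2.5 replicate 3 had an r of 0.950 and 0.958 with the other PM2.5 libraries, which had 0.991 with each other. No libraries were identical, and replicates 1 and 3 of the control group, the closest pair, still differed by more than sampling noise (chi-square of 3.17 per degree of freedom). Fitted changes are therefore given for all 6 libraries and for the 5 libraries without control replicate 2.

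Markers of the labelled cell type were near absent. Of 12 germ cell markers only Hspa2 had a mean FPKM of at least 1, and Spo11, Dazl, Piwil1 and Pgk2 had no read in any library. The summed FPKM of the 12 markers was 5.09 to 6.07 in the control group and 3.52 to 5.01 in the PM2.5 group, narrowly without overlap. Hspa2 itself overlapped, with 5.52, 2.51 and 4.61 in the control group and 3.81, 4.58 and 2.89 in the PM2.5 group. The sum of control replicate 2 included 2.56 for Sycp3, which had at most 0.438 in any other library. Of 9 markers of fibroblasts and peritubular cells, 8 had a mean FPKM of at least 1. Their summed FPKM was 1135 to 1506 in the control group and 842 to 1069 in the PM2.5 group, so that the groups did not overlap. The members of this list did not all go the way of the sum: Vim and Acta2 were higher in each PM2.5 library than in control replicates 1 and 3, with control replicate 2 the highest of all, and Col1a1 overlapped. One Sertoli marker of 7 (Gata4) and 2 Leydig markers of 6 (Nr5a1 and Star) reached a mean FPKM of 1, with the groups overlapping in both lists. Of 7 macrophage markers, Cd68 and Cd14 reached a mean FPKM of 1, while Adgre1, Ptprc and Itgam had no read. The sum over the 7 was 6.78 to 27.8 in the control group and 7.89 to 8.75 in the PM2.5 group, and the highest value was that of control replicate 2, where Cd68 had an FPKM of 15.5 against at most 1.80 in the other 5 libraries. No endothelial or epithelial marker reached a mean FPKM of 1, and the sum over the 4 markers of each was at most 0.465 and 1.03 in a library. Whether these markers have a part in the values of the proteases was not tested. In bulk RNA, fewer cells of a kind and less RNA per cell cannot be told apart.

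Of the 51 members, 29 lay under the filter on mean FPKM, and the expressed members were uneven in level. A mean of at least 1 FPKM (fragments assigned to a gene, scaled for its exon length and for depth) was reached by 22 members: 4 secreted MMPs, 2 membrane-anchored MMPs, 4 of TIMPs and Reck, 9 ADAMTS and 3 of the plasminogen activator system. No read in any library was found for 8 members, namely Mmp1b, Mmp7, Mmp8, Mmp20, Mmp27, Adamts8, Adamts13 and Adamts19. A count of 0 still allows up to 3 reads in a library, for counting error only. A further 12 members had at most 9 reads in any library, among them Timp4, Mmp12, Mmp21, Mmp24 and Serpine3. The last 9 of the 29 had more, and they included the membrane-anchored Mmp15, Mmp17, Mmp23 and Mmp25 with 3 to 38 reads in a library. Serpine2, Adamts12 and Adamts3 had the most among them, with up to 205, 93 and 90 reads in a library, and were left out by their mean FPKM and not for want of reads.

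**Figure D1:**
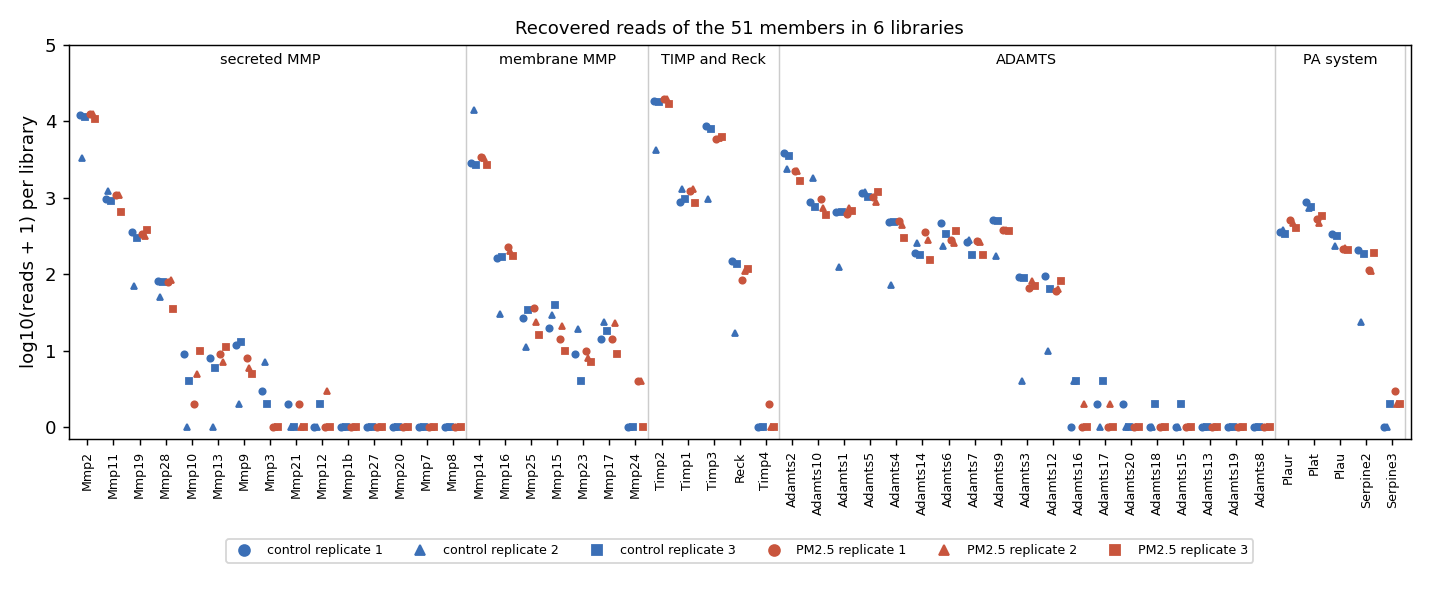
Recovered reads of all 51 members on a log10(reads + 1) axis, grouped by role and ordered by mean FPKM; each point is 1 library, blue for control and red for PM2.5, and the point shape gives the replicate number. The 8 members without a read sit at 0 in all 6 libraries, and control replicate 2 (blue triangle) lies away from the other controls in many expressed members.

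All 5 MMPs without a read lay in 1 gene cluster. On chromosome 9, 9 MMP genes (Mmp13, Mmp12, Mmp1b, Mmp3, Mmp10, Mmp8, Mmp27, Mmp20 and Mmp7) lie within 427.1 kb, from 7272514 to 7699585. They include collagenase-3 (Mmp13), stromelysin-1 (Mmp3) and matrilysin (Mmp7), while stromelysin-3 (Mmp11) lies on chromosome 10 and passed the filter. None of the 9 cluster genes passed the filter, and 5 had no read. The whole cluster held 73 reads over the 6 libraries, with at most 10 for a gene in a library. Outside the cluster, 6 of 13 MMPs passed. Mmp3 (stromelysin-1) had 2, 6 and 1 reads in control replicates 1 to 3 and no read in any PM2.5 library. These counts are at or near the floor of 3 reads, and 14.6% of the 31-base sequences of Mmp3 occur in other genes. Mmp13 (collagenase-3) had 7, 0 and 5 reads in the control group and 8, 6 and 10 reads in the PM2.5 group. The gelatinase Mmp9, which lies on chromosome 2, had 11, 1 and 12 reads in the control group and 7, 5 and 4 reads in the PM2.5 group.

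No member was called differentially expressed. A gene was called at a Benjamini-Hochberg adjusted p under 0.05 in limma with, in addition, an absolute log2 fold change over 1, and p-values were adjusted over all genes tested. With 6 libraries, 0 of the 22 tested members were called, against 11 of 11884 genes (0.0926%). Without control replicate 2, 0 of 22 were called, against 84 genes (0.707%), and the adjusted p alone also gave 0 members against 118 genes (0.993%). The voom test on recovered reads gave 0 members in both sets of libraries, against 0 of 11740 genes with 6 libraries and 109 with 5. With 6 libraries, the voom count of members could therefore not differ from 0. At an unadjusted p under 0.05, 3 members were found with 6 libraries, all lower, against 3.80% of all genes (1.92% higher and 1.88% lower). With 5 libraries there were 5 such members, 1 higher and 4 lower, against 15.9% of all genes (8.23% higher and 7.63% lower). An absolute log2 fold change above 0.5 was found for 7 members with 6 libraries, against 22.3% of all genes, and for 2 members with 5 libraries, against 10.1%. A fitted log2 fold change above 0 was found for 10 of the 22 members with 6 libraries, against 51.9% of all genes, and for 11 with 5 libraries, against 48.0%. The median log2 fold change of the 22 members was -0.035 with 6 libraries (0.020 over all genes) and -0.022 with 5 libraries (-0.011 over all genes). The count on the adjusted p alone depended on PM2.5 replicate 3. Without it as well as control replicate 2, the adjusted p alone was under 0.05 for 10 of the 22 members (45.5%) and for 5602 of the 11884 genes (47.1%), a share of the members close to that of all genes. Of these 10, 6 were higher (Mmp11, Mmp14, Timp1, Timp2, Plaur and Adamts14) and 4 were lower (Adamts2, Plat, Plau and Timp3). The directions over all genes were not counted for this fit.

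**Figure D2:**
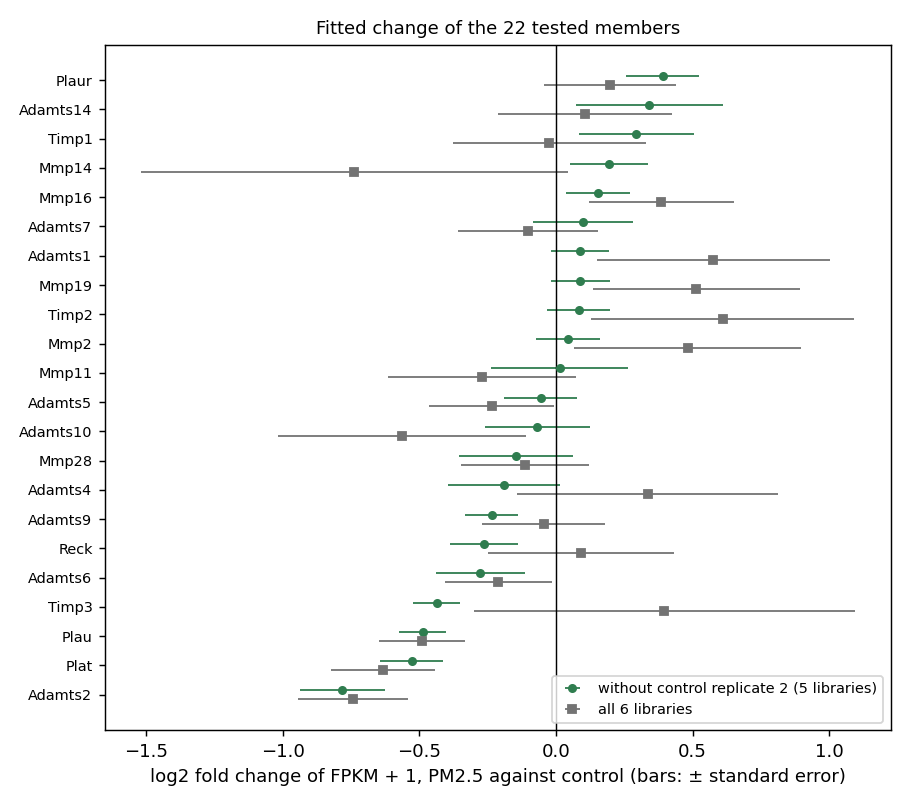
Fitted log2 fold change of FPKM + 1 (PM2.5 against control) with its standard error for the 22 tested members, with all 6 libraries (grey squares) and without control replicate 2 (green circles). Adamts2, Plat and Plau lie below 0 in both sets, and Timp3 and Mmp14 are among the members that change sides.

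Among the MMPs, Mmp2 and Mmp14 carried most of the expression. Mmp2 (gelatinase A, ENSMUSG00000031740, chromosome 8, 92827291 to 92853420) cuts denatured collagen and type IV collagen. Its FPKM was 191, 75.6 and 189 in control replicates 1 to 3, and 209, 206 and 175 in PM2.5 replicates 1 to 3. Control replicate 2 was low, and the other controls lay within the range of the PM2.5 libraries. In limma the log2 fold change was 0.48 (SE 0.42, adjusted p = 0.875; SE is the standard error) with 6 libraries and 0.043 (SE 0.12, adjusted p = 0.879) with 5. Mmp2 made up 76.7% to 79.2% of the summed MMP FPKM in 5 libraries and 25.6% in control replicate 2.

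Mmp14 (MT1-MMP, ENSMUSG00000000957, chromosome 14, 54431612 to 54445364), a membrane-anchored enzyme that activates pro-MMP2 at the cell surface, had the opposite pattern among the controls. Its FPKM was 25.5, 182 and 25.1 in the control group and 32.2, 31.2 and 24.5 in the PM2.5 group. Control replicate 2 was 7.19-fold of the mean of the other controls, and the other 5 libraries lay close together. The fold change took its direction from that library: it was -0.74 (SE 0.78, adjusted p = 0.875) with 6 libraries and 0.19 (SE 0.14, adjusted p = 0.555) with 5. Its share of the summed MMP FPKM was 10.4% to 11.8% in 5 libraries and 61.5% in control replicate 2.

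The other expressed MMPs were lower. Mmp11 (stromelysin-3) had an FPKM of 18.4, 33.8 and 18.1 in the control group and of 22.1, 21.7 and 12.9 in the PM2.5 group, where replicate 3 was the lowest of all 6. Its log2 fold change was -0.27 with 6 libraries and 0.013 with 5 (SEs 0.34 and 0.25), and 5.58% of its exon bases overlap Chchd10 on the other strand. Mmp16 (MT3-MMP) had an FPKM of 1.007, 0.258 and 1.08 in the control group and 1.43, 1.28 and 1.10 in the PM2.5 group. Every PM2.5 library was above every control library, though replicate 3 only narrowly, and the log2 fold change was 0.39 (SE 0.26, adjusted p = 0.875) and 0.15 (SE 0.12, adjusted p = 0.569). Its mean FPKM was 0.780 in the control group and 1.27 in the PM2.5 group, so Mmp16 passed the filter only through the PM2.5 group. Mmp19 had 5.35, 1.48 and 4.68 in the control group and 5.35, 5.03 and 5.81 in the PM2.5 group. However, 28.3% of its exon bases lie in exons of other genes on the opposite strand, Tmem198b among them, and the strand setting of the counting is not given in the sources used here.

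**Figure D3:**
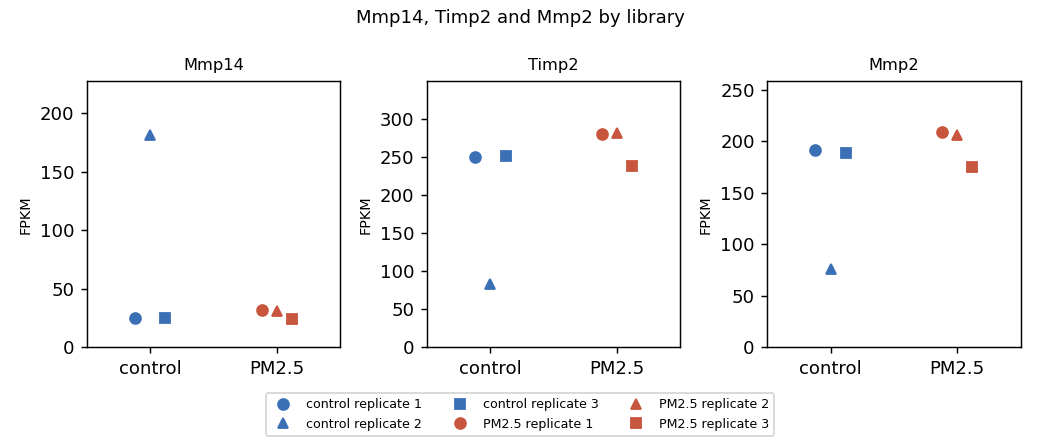
FPKM of Mmp14, Timp2 and Mmp2 in each library, with control in blue and PM2.5 in red; the point shape gives the replicate number. Control replicate 2 is the highest library for Mmp14 (182) and the lowest for Timp2 (83.05) and Mmp2 (75.6), while the other 5 libraries lie together.

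Timp2 was the most expressed inhibitor in 5 of the 6 libraries, ahead of Timp1 and Timp3. Timp2 (ENSMUSG00000017466, chromosome 11, 118301069 to 118355740), which inhibits MMPs and also joins pro-MMP2 to MMP14, had an FPKM of 249.9, 83.05 and 252 in the control group and 279.6, 281 and 238 in the PM2.5 group. The groups overlapped, with log2 fold changes of 0.61 (SE 0.48) for 6 libraries and 0.082 (SE 0.12, adjusted p = 0.759) for 5. The ratio of Timp2 to Mmp14 FPKM was 8.68 to 10.0 in 5 libraries and 0.457 in control replicate 2. The ratio of Timp2 to Mmp2 FPKM stayed between 1.10 and 1.37 in all 6 libraries, lowest in control replicate 2.

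Timp3 (ENSMUSG00000020044, chromosome 10, 86300372 to 86349506) is bound to the matrix and also inhibits ADAMTS proteases. Its FPKM was 56.9, 9.02 and 54.5 in the control group and 39.6, 41.3 and 41.8 in the PM2.5 group. The PM2.5 libraries lay close together, below control replicates 1 and 3 and far above control replicate 2. With 5 libraries the log2 fold change was -0.44 (SE 0.086, unadjusted p = 0.00360, adjusted p = 0.115), and with 6 it was 0.40 (SE 0.70, adjusted p = 0.886). Timp3 lies within Syn3, which is on the opposite strand and overlaps 21.3% of its exon bases, but Syn3 had only 7 to 26 reads in a library.

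Timp1 (chromosome X, 20870166 to 20874735), a soluble inhibitor, had an FPKM of 53.5, 111 and 60.0 in the control group and 77.4, 82.0 and 53.3 in the PM2.5 group. PM2.5 replicates 1 and 2 were above control replicates 1 and 3, but PM2.5 replicate 3 was the lowest of all. Its log2 fold changes were -0.024 (SE 0.35) and 0.29 (SE 0.21, adjusted p = 0.545), and the first of these turned positive when the libraries were scaled to their total reads. Reck had 1.68, 0.258 and 1.58 in the control group and 0.972, 1.30 and 1.32 in the PM2.5 group, below control replicates 1 and 3 in each PM2.5 library (log2 fold change -0.26, adjusted p = 0.384 with 5 libraries). With 6 libraries the sign turned, to 0.091 (SE 0.34, adjusted p = 0.937).

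**Figure D4:**
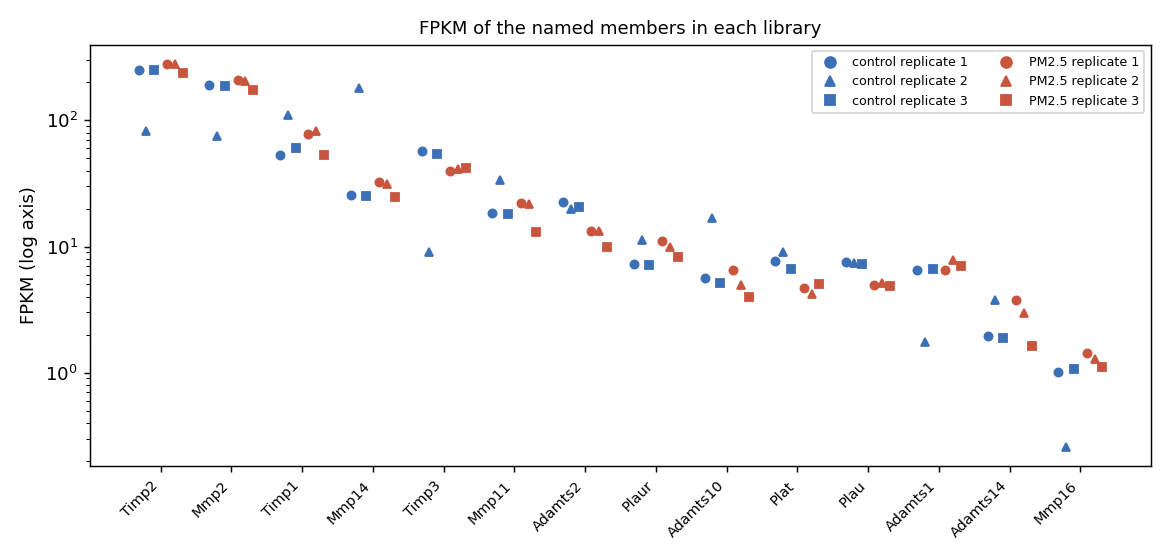
FPKM on a log axis of 14 members chosen by size of change or level, ordered by mean FPKM, with control in blue and PM2.5 in red and the point shape giving the replicate number. Adamts2, Plat and Plau are lower in all 3 PM2.5 libraries than in all 3 control libraries, Mmp16 is higher, and the other members overlap.

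Of the ADAMTS proteases, Adamts2 showed the largest difference in the 5 libraries. Adamts2 (ENSMUSG00000036545, chromosome 11, 50602084 to 50807573) removes the amino-terminal propeptide of fibrillar procollagens. Its FPKM was 22.4, 19.7 and 20.5 in control replicates 1 to 3 and 13.3, 13.3 and 9.89 in PM2.5 replicates 1 to 3. The groups did not overlap, and the control group included replicate 2, which lay near the other controls for this gene in the deposited FPKM. The mean ± SD of 3 libraries was 20.9 ± 1.40 for control and 12.2 ± 1.97 for PM2.5, 0.582-fold of the control. In the fits, the log2 fold change was -0.74 (SE 0.20, unadjusted p = 0.00962, adjusted p = 0.778) with 6 libraries and -0.78 (SE 0.16, unadjusted p = 0.00399, adjusted p = 0.119) with 5, so that it was not called. Scaled to total reads, the limma fit with 6 libraries gave -0.62 (SE 0.25, unadjusted p = 0.0451).

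None of the other 8 expressed ADAMTS genes had an unadjusted p under 0.05 in either set of libraries. Adamts1, which cleaves the proteoglycans aggrecan and versican, had an FPKM of 6.51, 1.76 and 6.68 in the control group and 6.46, 7.78 and 7.07 in the PM2.5 group. Apart from control replicate 2, the groups overlapped (log2 fold change 0.58, SE 0.43 with 6 libraries and 0.089, SE 0.11 with 5). Adamts10 had 5.65, 16.9 and 5.14 in the control group and 6.54, 4.99 and 4.01 in the PM2.5 group (log2 fold change -0.56, SE 0.45 with 6 libraries and -0.068, SE 0.19 with 5). Adamts14, a procollagen processing enzyme like Adamts2, had an FPKM of 1.95, 3.75 and 1.87 in the control group and 3.77, 2.99 and 1.63 in the PM2.5 group (log2 fold change 0.11, SE 0.32 with 6 libraries and 0.34, SE 0.27 with 5). The groups overlapped in both sets of libraries: PM2.5 replicate 3 was the lowest of all 6, and control replicate 2 lay above the other controls and beside PM2.5 replicate 1. Adamts1 and its neighbour Adamts5 lie 53.1 kb apart on chromosome 16, and control replicate 2 was 0.267-fold of the other controls for Adamts1 and 1.53-fold for Adamts5. For Adamts9, the PM2.5 libraries lay below control replicates 1 and 3 (log2 fold change -0.24, adjusted p = 0.333 with 5 libraries and -0.046, adjusted p = 0.952 with 6), with 11.99% of its exon bases in exons of other genes. Adamts3, under the filter, had 90, 3 and 87 reads in the control group and 64, 81 and 69 in the PM2.5 group.

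Within the plasminogen activator system, both activators were lower in each PM2.5 library than in each control library. Plau (urokinase, ENSMUSG00000021822, chromosome 14, 20836660 to 20843385) had an FPKM of 7.51, 7.46 and 7.26 in the control group and 4.94, 5.17 and 4.84 in the PM2.5 group. In recovered reads, control replicate 2 was the lowest control, with 330, 229 and 310 reads in control replicates 1 to 3. The PM2.5 libraries had 209, 217 and 207 reads. In the deposited FPKM, each group was tight and control replicate 2 did not stand apart. The mean ± SD of 3 libraries was 7.41 ± 0.131 for control and 4.98 ± 0.168 for PM2.5, 0.672-fold of the control, and the smallest adjusted p of the family belonged to Plau with 5 libraries. Its log2 fold change was -0.49 (SE 0.16, unadjusted p = 0.0197, adjusted p = 0.875) with 6 libraries and -0.49 (SE 0.086, unadjusted p = 0.00217, adjusted p = 0.0971) with 5. Scaled to total reads, the limma fit with 6 libraries gave -0.38 (SE 0.19, unadjusted p = 0.0921).

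Plat (tissue-type plasminogen activator, ENSMUSG00000031538, chromosome 8, 22757727 to 22782844) had 7.61, 9.12 and 6.67 in the control group and 4.65, 4.21 and 5.08 in the PM2.5 group. The highest PM2.5 library was below the lowest control library. Plat had a log2 fold change of -0.63 (SE 0.19, unadjusted p = 0.0145, adjusted p = 0.875) with 6 libraries and -0.53 (SE 0.11, unadjusted p = 0.00544, adjusted p = 0.133) with 5.

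Plaur, the urokinase receptor (chromosome 7, 24462484 to 24475968), had 7.23, 11.2 and 7.08 in the control group and 11.04, 9.89 and 8.33 in the PM2.5 group. It was higher in each PM2.5 library than in control replicates 1 and 3, while control replicate 2 was the highest of all 6. The log2 fold change of Plaur was 0.20 (SE 0.24) with 6 libraries and 0.39 (SE 0.13, unadjusted p = 0.0322, adjusted p = 0.271) with 5. Serpine2 (protease nexin-1), under the filter, had 205, 23 and 181 reads in control libraries and 113, 109 and 189 in PM2.5 libraries, and the groups overlapped.

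**Figure D5:**
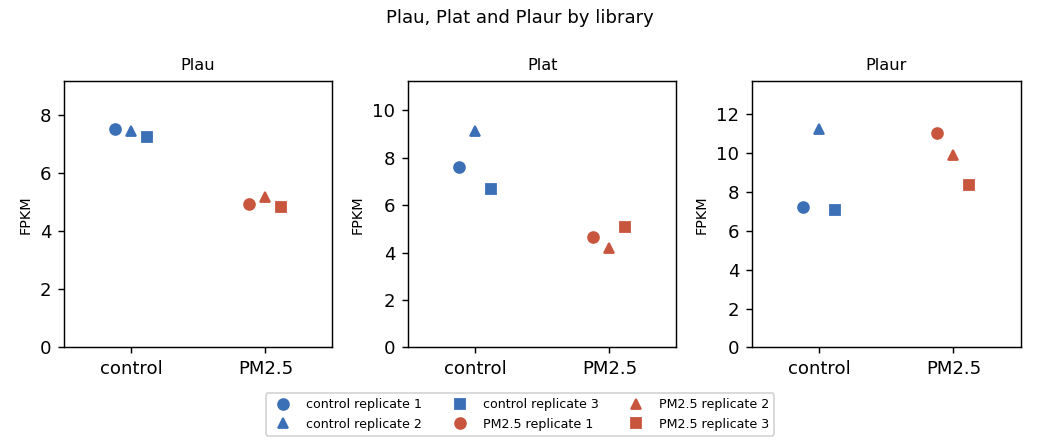
FPKM of Plau, Plat and Plaur in each library, with control in blue and PM2.5 in red and the point shape giving the replicate number; every axis starts at 0. Plau and Plat are lower in all 3 PM2.5 libraries than in all 3 control libraries, and control replicate 2 is the highest library for Plaur (11.2).

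Counted over the family, the groups did not overlap for 4 of 22 members with 6 libraries. Mmp16, which passed the filter only through the PM2.5 group, was higher, and Adamts2, Plat and Plau were lower. Such a lack of overlap was found for 15.2% of all genes tested (8.35% higher and 6.85% lower). With 5 libraries it held for 8 of 22 members against 37.3% of all genes (17.7% higher and 19.6% lower), and the additions were Plaur on the higher side and Timp3, Adamts9 and Reck on the lower side. All of these members are given as values, since none was called.

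Promoters were examined for motifs of AP-1, a known regulator of several MMP genes, of the aryl hydrocarbon receptor (AhR), the pathway the study asked about, and for 2 core elements. RefSeq promoter sequences (GRCm38.p6) were matched to 35 of the 51 members, 12 of them expressed, and the 250 bases before the start site were searched on both strands. The AP-1 site TGACTCA was found in 7 of the 35 members and in 4.46% of all 32851 promoters. Among the 12 expressed members only Plaur held it, 69 bases upstream of the start. The AhR core GCGTG was found in 12 of the 35 and in 28.2% of all promoters, and in Timp1, Timp2, Timp3, Adamts1, Adamts9 and Adamts14 among the expressed members. The GC box GGGCGG was found in 19 of the 35 and in 32.7% of all promoters, and the 19 include all 12 expressed members. The TATA box TATAAA was found in 8 of the 35 and in 12.4% of all promoters, with Adamts1 the 1 expressed member that held it. A match describes letters and not a bound site. The share among promoters of expressed genes was not computed, so the 12 expressed members have no comparison of their own. The 35 members had 38 promoters, while the shares over all are counted per promoter. With 5 libraries, 5 members had an unadjusted p under 0.05 in limma, of which Plat and Plau had no matched promoter. The windows of the other 3 (Adamts2, Timp3 and Plaur), and of Mmp14, are given 5′ to 3′. The AP-1, AhR core and GC box matches of either strand are in capitals. With 6 libraries, only Adamts2 of these 3 had an unadjusted p under 0.05. Neighbouring GC boxes adjoin or overlap in Plaur and Mmp14.
Adamts2 promoter, chr11:50601835-50602084, plus strand: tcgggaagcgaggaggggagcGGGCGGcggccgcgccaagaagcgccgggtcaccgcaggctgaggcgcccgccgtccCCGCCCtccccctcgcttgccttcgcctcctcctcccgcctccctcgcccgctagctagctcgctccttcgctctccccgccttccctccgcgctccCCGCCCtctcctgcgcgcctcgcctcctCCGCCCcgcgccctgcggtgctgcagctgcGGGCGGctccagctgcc
Timp3 promoter, chr10:86300162-86300411, plus strand: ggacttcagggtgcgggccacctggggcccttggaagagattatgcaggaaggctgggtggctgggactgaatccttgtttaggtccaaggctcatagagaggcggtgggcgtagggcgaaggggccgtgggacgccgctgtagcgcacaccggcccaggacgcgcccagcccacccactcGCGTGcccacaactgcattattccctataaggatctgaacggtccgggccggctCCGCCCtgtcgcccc
Plaur promoter, chr7:24462233-24462482, plus strand: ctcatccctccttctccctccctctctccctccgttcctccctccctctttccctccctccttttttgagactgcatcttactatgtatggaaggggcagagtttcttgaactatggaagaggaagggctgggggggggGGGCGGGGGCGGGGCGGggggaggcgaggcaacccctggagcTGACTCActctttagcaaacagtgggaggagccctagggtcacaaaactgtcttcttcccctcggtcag
Mmp14 promoter, chr14:54431348-54431597, plus strand: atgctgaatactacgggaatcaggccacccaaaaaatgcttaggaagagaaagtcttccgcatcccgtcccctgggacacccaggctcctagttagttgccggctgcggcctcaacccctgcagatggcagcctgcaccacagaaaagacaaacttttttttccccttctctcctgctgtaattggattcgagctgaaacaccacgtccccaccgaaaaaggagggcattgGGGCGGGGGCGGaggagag
The window of Timp3 holds 1 AhR core and 1 GC box, and that of Adamts2 holds GC boxes only.

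The surroundings of the family were followed in a list of 70 genes: activators and receptors, related proteases, other inhibitors, regulators and substrates. Of these, 50 were tested. With 6 libraries 0 were called, with 1 higher and 3 lower at an unadjusted p under 0.05, against 1.92% and 1.88% of all genes. With 5 libraries 0 met both thresholds, and 5 were higher and 9 lower at an unadjusted p under 0.05, against 8.23% and 7.63% of all genes. Plg, which encodes plasminogen, the substrate of Plau and Plat, had no read in any library.

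On the adjusted p alone, 1 of the 50 genes passed with 5 libraries, against 0.993% of all genes. Without PM2.5 replicate 3 as well, 36 of the 50 passed, against 47.1% of all genes. The gene that passed with 5 libraries was Adamtsl3, a secreted ADAMTS-like protein without a protease domain, with an FPKM of 2.58, 1.77 and 2.69 in the control group and 0.802, 0.917 and 0.815 in the PM2.5 group. The groups did not overlap, and Adamtsl3 passed the filter only through the control group. The log2 fold change was -0.98 (SE 0.10, adjusted p = 0.0284), just short of the fold threshold with the pseudocount of 1. Over all settings with 5 libraries the log2 fold change lay between -1.64 and -0.96. With 6 libraries it was -0.85 (SE 0.20, adjusted p = 0.573). Adam8, a membrane-bound metalloprotease, had 0.488, 1.43 and 0.789 in the control group and 2.06, 1.79 and 2.02 in the PM2.5 group. It was higher in all PM2.5 libraries than in all control libraries, with a log2 fold change of 0.86 (SE 0.13, adjusted p = 0.0722) with 5 libraries and 0.66 (SE 0.24, adjusted p = 0.875) with 6. The mean of its control libraries was under the filter, so Adam8 passed the filter only through the PM2.5 group.

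Fosl1, a subunit of AP-1, had an FPKM of 9.03, 84.5 and 13.4 in the control group and 42.8, 39.2 and 19.5 in the PM2.5 group. Control replicate 2 was the highest library and PM2.5 replicate 3 the lowest PM2.5 library, and the log2 fold change was 1.46 (SE 0.38, adjusted p = 0.188) with 5 libraries and 0.51 (SE 0.84, adjusted p = 0.880) with 6. Among the substrates, fibronectin (Fn1, also on the fibroblast marker list) had 192, 39.8 and 186 in the control group and 124, 125 and 107 in the PM2.5 group (log2 fold change -0.67, SE 0.11, adjusted p = 0.0859 with 5 libraries). With 6 libraries the sign of Fn1 turned, to 0.071 (SE 0.63, adjusted p = 0.972). The basement membrane protein nidogen-1 (Nid1) had 13.2, 3.44 and 13.7 in the control group and 19.96, 21.05 and 21.1 in the PM2.5 group (log2 fold change 0.59, SE 0.085, adjusted p = 0.0648 with 5 libraries and 1.15, SE 0.49, adjusted p = 0.875 with 6). Fn1 and Nid1 were named after their values were seen, and neither was called.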

How the data were processed

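RNA from 6 libraries of GC-2spd cells (3 control, 3 PM2.5) was sequenced. The authors mapped the reads with HISAT2 (2.0.5 in the submitters' processing notes), counted them with featureCounts (1.5.0-p3) and deposited FPKM per gene. The notes name the build mm9, while 54495 of 54886 gene identifiers and their lengths were those of GENCODE M21 on GRCm38, which was used here for symbols, lengths and positions. The FPKM times the exon length fell within 0.05 of a whole read for 98.1% to 98.4% of the values under 50 reads in each library, and 50 of the 51 members were whole in all 6 libraries. Depth was 16209352 to 18003200 recovered reads. Implied denominators were 0.800 of the total reads in control replicate 2 and 1.03 to 1.05 in the others, so the deposited FPKM were taken as already scaled between libraries.

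The log2(FPKM + 1) was fitted over 11884 genes (mean FPKM of 1 or more across 6 libraries) with limma 3.58.1 (trend and robust, R 4.3.3), with 6 libraries and with 5, without control replicate 2. The p-values were adjusted by Benjamini-Hochberg over all genes tested. The pseudocount of 1 understates fold changes of low genes. The members, the lists of partner and marker genes and the naming rule were chosen with earlier results of these data known. Named members were the 6 with the largest absolute log2 fold change in each set of libraries and the 2 most expressed of each class, and named partners the 3 with the largest fold change or a call; others were named after their values were seen. Alternatives were pseudocount, filters, scalings, voom on recovered reads (with TMM factors), a replicate block, no fold threshold and leaving out each library. The computation was tested on simulated data. Tables and figures were made with numpy 2.4.6, pandas 2.3.3 and matplotlib 3.10.9. One gene that the naming of the family also takes in is not reported here.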

Additional observations from a re-analysis of the deposited data

How the results depend on the processing

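The count of called members was 0 with 6 and with 5 libraries under the other pseudocount, filters, scalings, voom and the replicate block. It was also 0 in each fit that left out 1 library and kept more than 1 in each group. With 6 libraries, 0 of all genes were called with no filter, voom, the replicate block, or any library but control replicate 2 left out. The same held with 5 libraries without PM2.5 replicate 1 or 2. In those fits the member count could not differ from 0. The other alternatives with more than 1 library in each group called 4 to 84 genes with 6 libraries and 40 to 356 with 5. An unadjusted p under 0.05 gave 3 members with 6 libraries (2 when scaled to total reads) and 5 with 5. No fold threshold together with leaving out 1 of the 5 libraries, a combination added after the data were seen, gave 0 to 10 members, the 10 without PM2.5 replicate 3. The partner count with 5 libraries was 1 with a pseudocount of 0.1, with voom and with no fold threshold, and 0 to 1 when a library was left out, 1 without PM2.5 replicate 3, where 36 of 50 passed with no fold threshold. Voom called 109 of 11740 genes with 5 libraries.

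Directions reversed with 6 libraries for Mmp14 (-1.21 to 0.19 when a library was left out), Timp3 (-0.44 to 0.83), Mmp11 (-0.42 to 0.013), Fosl1 (-0.088 to 1.46), Adamts14 (-0.080 to 0.35) and Timp1 (-0.22 to 0.29, and 0.11 scaled to total reads and 0.14 with quantile normalization). Without control replicate 2, Mmp14 was 0.19, Timp3 -0.44, Mmp11 0.013 and Timp1 0.29. Timp1 was 0.17 without PM2.5 replicate 3, and Fosl1 was -0.088 without control replicate 1. With 5 libraries, Adamts10 (-0.22 to 0.073), Mmp2 (-0.0019 to 0.12, and -0.038 with quantile normalization) and Mmp11 (-0.11 to 0.25, and -0.10 with the replicate block) reversed. Among the 5 libraries, no control shares the number of PM2.5 replicate 2. The replicate block there gives the fold changes of the fit without that library, so its fold changes are not separate alternatives. Without control replicate 2, Reck also went from 0.091 to -0.26 and Fn1 from 0.071 to -0.67. The cause was not tested. Of 221 alternative values of 17 genes with 6 libraries, 210 kept direction and side of the threshold, as did 195 of 204 with 5. Scaling to total reads moved the median of all genes from 0.020 to 0.13 with 6 libraries.

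Deviations from the group means had r of -0.28, 0.18 and 0.25 between same-numbered libraries, and of -0.28 to 0.29 between unlike-numbered ones. Deviations within a group depend on each other, so these values cannot show whether the numbers are pairs. The main fit took no pairs. With the replicate block, 0 members were called, against 0 of 11884 genes with 6 libraries and 92 with 5. In that limma fit, 1 member with 6 libraries and 2 with 5 had an unadjusted p under 0.05. Over all 11884 genes, 335 with 6 libraries and 832 with 5 had one.

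The limits are 3 libraries a group, 1 cell line, a control library that stands apart, a PM2.5 library on which the adjusted p depends, and FPKM in place of counts. Members with few reads could not be compared at this depth.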
